A study of Rattus norvegicus with 12 samples.

Results

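The genes described here are 10 markers of granulocytes and mast cells, the white blood cells that carry preformed granules: S100a8, S100a9, Cxcr2, Csf3r and Mpo for neutrophils, Rnase2 for eosinophils, and Cpa3, Fcer1a, Ms4a2 and Kit for mast cells. Members were taken through the RefSeq accession of each array probe, which found 10 probes for 9 of the 10 genes, among 15154 gene symbols on the array. Fcer1a had 2 probes and the others 1 each, and no probe was matched to Mpo, which is not analysed here. All 9 were among the 20426 features tested. A probe was tested if it was well above background in 4 of 4 animals of a group, and 5 members met that in all 3 groups. Cxcr2, Csf3r and Ms4a2 met it in the old fed rats alone, and Rnase2 in both fed groups.

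RNA came from the body of the urinary bladder of 12 male Fischer 344 rats, with 1 animal per array and 4 animals per group. The old restricted rats, 25 to 28 months old, had been fed on 3 days a week since they were 6 weeks old, an intake about 40% lower than that of their controls. The old fed rats, of the same ages, and the young fed rats, 6 months old, ate freely. The series title asks whether inflammatory changes of the ageing bladder are prevented by caloric restriction.

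Neutrophils are short-lived phagocytes that leave the blood along gradients of chemokines such as Cxcl1 and Cxcl2, which they sense through the receptor Cxcr2, and their cytosol is rich in the paired calcium-binding proteins S100a8 and S100a9. Eosinophils store cytotoxic proteins, among them ribonucleases, a peroxidase and the major basic protein. Mast cells live in the tissue itself, in the bladder mostly in the lamina propria and the detrusor muscle. They depend on the receptor Kit, bind IgE through a receptor that includes Fcer1a and Ms4a2, and store histamine, tryptases, chymases and carboxypeptidase A3.

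Every level below is the log2 processed signal of a probe after the array's own 75th percentile was subtracted, so 0 marks that percentile and levels of different probes are not compared. Probes well above background numbered 22567 to 23200 in old restricted, 23373 to 24644 in old fed and 21660 to 22294 in young fed rats, of 30367. Negative control spots stood at -9.81 to -9.54, -10.45 to -9.97 and -9.18 to -8.94 in the same order of groups. The arrays of old restricted rats were on a slide and in a scan of their own, so slide and diet cannot be told apart. Old fed and young fed rats shared the other slide, each group in an array row of its own, so array row and age cannot be told apart. On the first principal component, replicate 2 of the old fed rats stood at 51.9, against 7.28 to 13.7 for the other 3 old fed animals, and results that rest on it are given with and without it. Markers of detrusor smooth muscle (8 of 8 listed genes) and of the urothelium (10 of 12) passed the filter on dim probes.

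Promoter sequences, 250 bases before and 50 after the start of each gene, are shown for the members whose levels are described most closely below, since S100a9 stands for a pair that varied together, Cpa3 and Fcer1a for a mast cell group that varied together, and Rnase2 for the widest difference among the members. They are RefSeq sequences of the GRCr8 build, read on the gene's strand, and 8 of the 10 genes were matched. Capitals mark matches, on either strand, to the motifs of 3 kinds of factor. The letters searched were TTNNGNAA for the C/EBP factors and GAGGAA for PU.1. For the factors of the GATA family the letters AGATAA were searched, and a match with TGATAA in their place was also counted. The windows are chr2:178490573-178490872 for S100a9, chr15:26923885-26924184 for Rnase2, chr2:104673188-104673487 for Cpa3 and chr13:88224630-88224929 for Fcer1a, all on the minus strand.
S100a9: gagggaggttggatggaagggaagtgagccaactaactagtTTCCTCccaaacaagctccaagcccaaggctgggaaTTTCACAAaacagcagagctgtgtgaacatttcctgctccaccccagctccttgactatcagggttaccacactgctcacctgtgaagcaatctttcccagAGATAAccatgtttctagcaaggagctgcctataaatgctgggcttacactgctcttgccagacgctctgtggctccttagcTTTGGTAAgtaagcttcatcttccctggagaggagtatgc
Rnase2: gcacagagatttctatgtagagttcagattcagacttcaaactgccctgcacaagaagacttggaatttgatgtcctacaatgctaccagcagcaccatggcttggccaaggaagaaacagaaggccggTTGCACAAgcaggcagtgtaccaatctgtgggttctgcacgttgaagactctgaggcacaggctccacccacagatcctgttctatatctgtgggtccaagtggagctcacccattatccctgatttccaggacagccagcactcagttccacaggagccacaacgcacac
Cpa3: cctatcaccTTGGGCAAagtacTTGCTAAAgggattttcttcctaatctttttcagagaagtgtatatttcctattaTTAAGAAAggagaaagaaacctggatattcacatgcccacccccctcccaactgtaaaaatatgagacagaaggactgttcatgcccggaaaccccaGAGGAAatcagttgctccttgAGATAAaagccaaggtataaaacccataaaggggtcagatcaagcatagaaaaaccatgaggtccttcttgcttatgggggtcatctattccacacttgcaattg
Fcer1a: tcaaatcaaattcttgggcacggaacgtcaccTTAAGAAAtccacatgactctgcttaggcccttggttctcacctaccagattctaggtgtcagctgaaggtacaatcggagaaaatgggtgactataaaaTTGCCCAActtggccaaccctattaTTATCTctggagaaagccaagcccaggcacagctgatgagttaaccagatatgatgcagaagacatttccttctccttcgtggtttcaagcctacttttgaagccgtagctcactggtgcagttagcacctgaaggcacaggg

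These factors act in the development of myeloid cells and mast cells. The C/EBP letters occurred in 41.3% of the 33469 promoters of this length, the GATA letters in 18.9% and the PU.1 letters in 27.6%, so a match is common by letters alone. Cpa3 held 3 C/EBP matches, 1 PU.1 match at -76 and 1 GATA match at -55 relative to the gene's start, and Fcer1a held 2 C/EBP matches and 1 GATA match at -93. S100a9 held 2 C/EBP matches, 1 GATA match at -72 and 1 PU.1 match at -209. Rnase2 held 1 C/EBP match, at -121. In windows not printed, Csf3r and Mpo each held 1 C/EBP and 1 PU.1 match, and Cxcr2 and Kit held none of these letters. No marked stretch overlapped another, and no binding was measured.

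Of the 9 measured genes, the eosinophil ribonuclease gene Rnase2 and the neutrophil chemokine receptor gene Cxcr2 fell in old restricted against old fed bladders. All 9 differences were negative, with a median of -1.13 on the log2 scale, where the median of all features tested was 0.02. At an adjusted p under 0.05, 2 of 9 members were lower and 0 higher, against 2.02% and 1.62% of all features (limma). Without old fed replicate 2 the count was 1, Rnase2. Before adjustment 8 of 9 were lower and 0 higher at p under 0.05, against 9.15% and 11.5% of all features. Both called genes, and Csf3r and Ms4a2, were admitted to the test only through groups in which they were higher, so these counts are a description. With no filter on dim probes the same 2 genes passed, Cxcr2 at an adjusted p of 0.0415 and Rnase2 at 0.0146. Old restricted and old fed animals were fully separated for 5 of 9, namely S100a8, S100a9, Cxcr2, Rnase2 and Kit, against 6.05% of all features in that direction. Bulk RNA does not separate fewer cells of a type from less RNA per cell, and this holds for every difference below.

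Against young fed rats, Rnase2 was again lower in old restricted rats and was the only member to pass. All 9 differences were negative (median -0.44, against -0.01 for all features), 1 of 9 was lower and 0 higher where 5.99% and 3.19% of all features were, and the groups did not overlap for Rnase2, Cpa3 and Kit (10.8% of all features). Before adjustment 3 of 9 were lower and 0 higher at p under 0.05, against 16% and 10.1% of all features. In the comparison of age, old fed against young fed rats, 0 of 9 members were higher and 0 lower, where 1.63% and 2.1% of all features were (limma). Of the 9 differences with age 7 were positive and 2 negative, with a median of 0.42 against -0.05 for all features. Before adjustment 3 of 9 were higher and 0 lower at p under 0.05, against 8.32% and 16.3% of all features. These were S100a9 and, both admitted to the test only through old fed rats, Cxcr2 and Csf3r. The groups overlapped for every one of the 9, while they did not for 15.1% of all features. The comparisons share arrays pairwise, so their differences are not independent of each other.

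**Figure D1:**
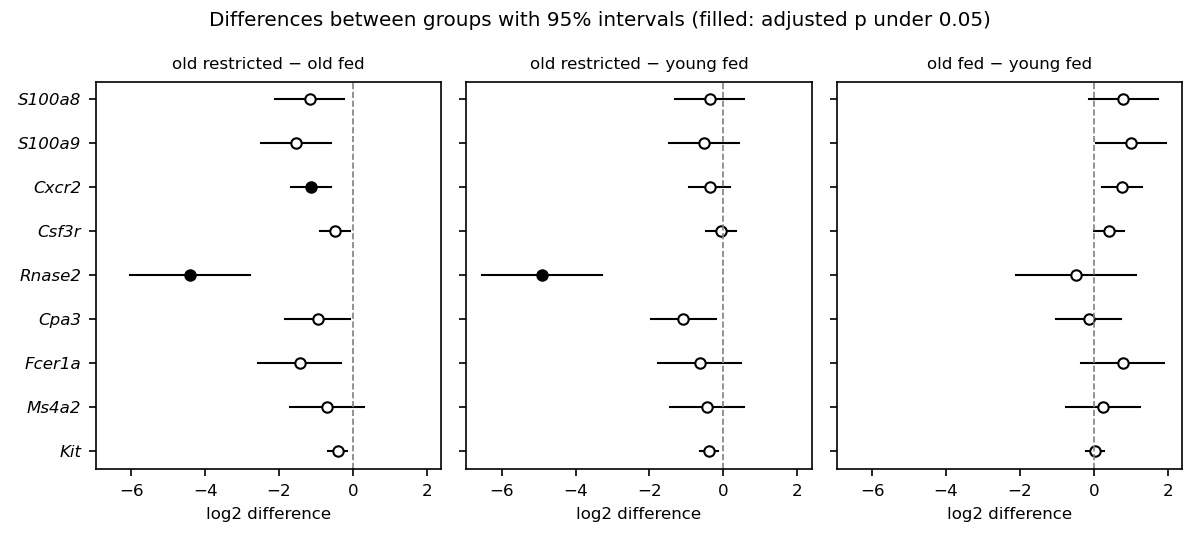
Log2 differences between groups for the 9 measured genes, with 95% intervals from limma, one panel per comparison, filled points having an adjusted p under 0.05. Filled points are Rnase2 and Cxcr2 in old restricted against old fed rats (-4.41 and -1.13) and Rnase2 in old restricted against young fed rats (-4.90).

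The genes of the paired neutrophil proteins lay lower in every old restricted than in every old fed animal, but did not pass. S100a8 had levels of -5.37, -5.33, -5.90 and -5.78 in old restricted rats, -4.32, -3.18, -5.03 and -5.17 in old fed rats, and -4.51, -4.88, -5.42 and -6.12 in young fed rats. S100a9, its partner in the heterodimer calprotectin, had -4.50, -4.85, -5.60 and -4.79 in old restricted, -3.37, -2.38, -3.81 and -4.03 in old fed, and -3.52, -3.96, -4.71 and -5.44 in young fed rats. For both genes the old fed animals were higher than all old restricted animals, and the young fed animals spread across the range of the other two groups. S100a9 was 2.89-fold lower in old restricted than in old fed rats (log2 -1.53, 95% interval -2.49 to -0.58, limma adjusted p = 0.0783), and S100a8 2.25-fold lower (log2 -1.17, -2.11 to -0.23, adjusted p = 0.154). Without old fed replicate 2, the highest array for both, these differences were -1.19 and -0.76. With age S100a9 differed by 1.01 (0.06 to 1.97, adjusted p = 0.179) and S100a8 by 0.80 (-0.13 to 1.74, adjusted p = 0.27), or 0.67 and 0.39 without that replicate.

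**Figure D2:**
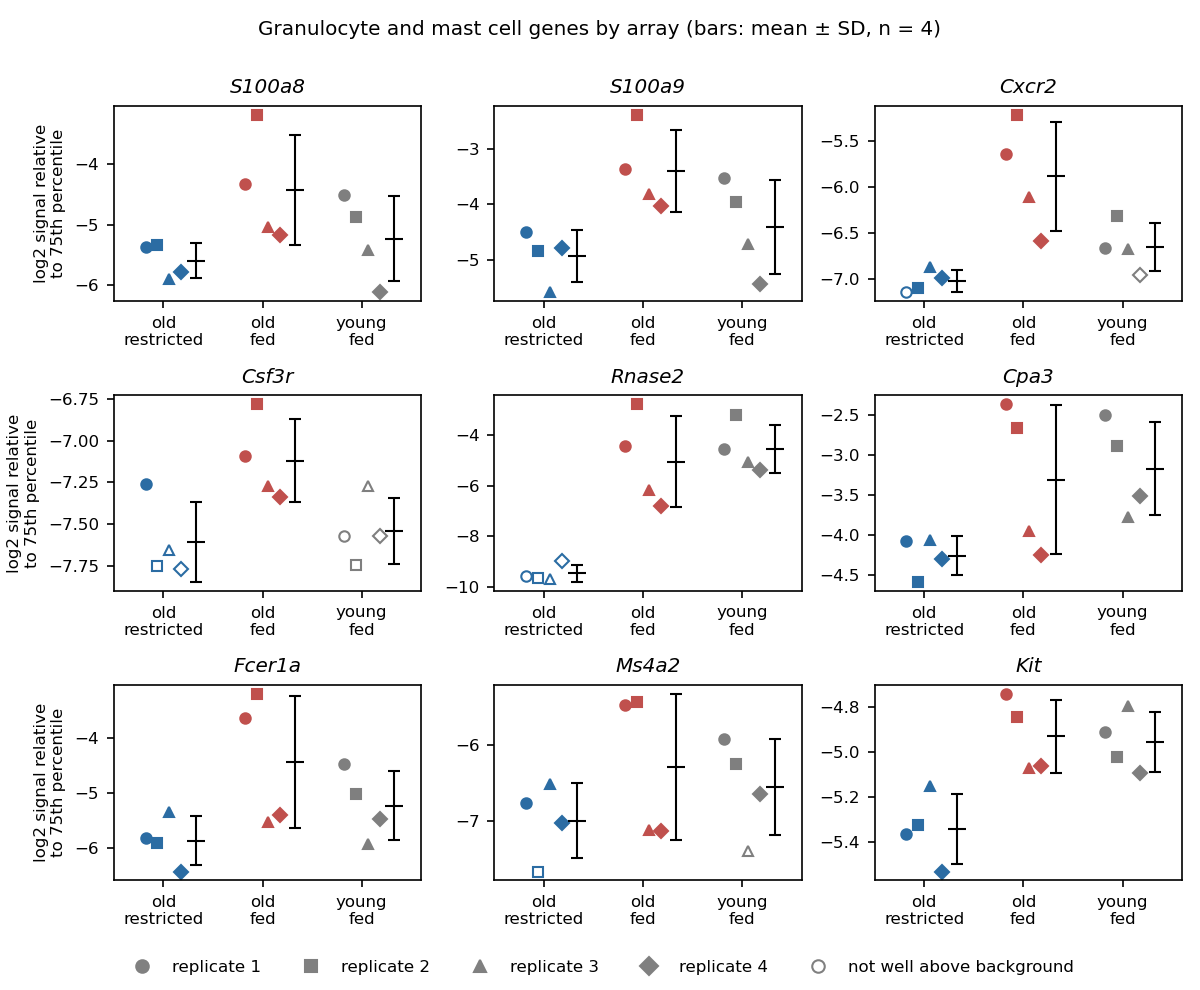
Levels of the 9 measured genes in each animal (log2 signal relative to the array's 75th percentile), with one marker shape per replicate number, open symbols for probes not well above background, and the mean ± SD of 4 animals beside the points. The 4 old restricted points of Rnase2 are open and lie at -9.68 to -8.95, below every fed animal, while Kit covers less than 1 log2 unit over all 12 animals.

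The genes of neutrophil receptors lay closer to background. Cxcr2, the receptor for Cxcl1 and Cxcl2, had levels of -7.14, -7.09, -6.87 and -6.99 in old restricted rats, -5.64, -5.22, -6.11 and -6.58 in old fed rats and -6.66, -6.31, -6.68 and -6.96 in young fed rats. Each old restricted animal lay below each old fed animal, and the young fed animals lay between or among them. The probe was not well above background in old restricted replicate 1 and young fed replicate 4. Cxcr2 fell 2.19-fold in old restricted against old fed rats (log2 -1.13, -1.68 to -0.58, adjusted p = 0.0329), and it was tested only because it was above background in all old fed rats. That call did not hold without old fed replicates 1, 2 or 3 or without any 1 of the 4 old restricted animals, where the difference was -0.91 to -1.21 (adjusted p = 0.0551 to 0.089), and it was -0.40 (adjusted p = 0.0415) with normexp background correction. With age it differed by 0.76 (0.22 to 1.31, adjusted p = 0.0969), or 1.0 (adjusted p = 0.0391) without old fed replicate 4 and 0.54 (adjusted p = 0.223) without old fed replicate 2.

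Csf3r encodes the receptor for granulocyte colony-stimulating factor, which drives neutrophil production. It lay near background, with -7.26, -7.75, -7.65 and -7.77 in old restricted rats, -7.09, -6.78, -7.27 and -7.34 in old fed rats and -7.57, -7.75, -7.27 and -7.57 in young fed rats. It was well above background in 1 of 4, 4 of 4 and 0 of 4 of these animals. The cut-off differed between arrays, as -7.27 was above it in old fed replicate 3 and not in young fed replicate 3. The groups overlapped, and its difference between old restricted and old fed rats was -0.49 (-0.88 to -0.09, adjusted p = 0.165).

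Among other neutrophil genes, the granule and surface list gave few calls. Of 38 genes listed, 33 were on the array and 18 were tested. In old restricted against old fed rats 1 was higher and 0 lower (median -0.39), where 1.62% and 2.02% of all features were. That gene was Padi4, which encodes an enzyme that citrullinates histones, up 1.28-fold (log2 0.36, adjusted p = 0.0458). Without old fed replicate 2 the list had 0 genes past the threshold by limma, and a median of -0.21. Against young fed rats 1 was higher and 0 lower (median 0.00), where 3.19% and 5.99% of all features were. It was again Padi4 (log2 0.37, adjusted p = 0.0262), joined by the Fc receptor gene Fcgr3a without old fed replicate 2. With age 1 of 18 rose and 0 fell (median 0.23), where 1.63% and 2.1% of all features did. The gene was Itgb2, the beta chain of the integrins by which white cells adhere (2.01-fold, log2 1.0, adjusted p = 0.046). Without old fed replicate 2 the count was 2, Itgb2 and Fcgr3a, and the median 0.08. Itgb2 is shared by macrophages and lymphocytes. It lost its call without any 1 of young fed replicates 1 to 4, old fed replicate 1 or old restricted replicates 1 to 4 (0.93 to 1.05, adjusted p = 0.0521 to 0.102), and in 5 of the other settings tried (adjusted p = 0.0581 to 0.112). Padi4 lost its call against old fed rats without any 1 of young fed replicates 2, 3 and 4, old fed replicates 1, 2 and 3 or old restricted replicates 1, 3 and 4 (0.30 to 0.38, adjusted p = 0.0536 to 0.107) and in 6 of the other settings (adjusted p = 0.0532 to 0.085). It lost it against young fed rats without young fed replicates 1 or 2 or old restricted replicates 1 or 3 (0.30 to 0.36).

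Products of neutrophil granules were divided, some at or near background and some above it in all animals. Ctsg, Ltf, Mmp8, Np4 and Defa5, and the receptor gene Cxcr1, were well above background in 0 of 12 animals, and the elastase gene Elane in 1. Camp, the cathelicidin of secondary granules, Pglyrp1, a peptidoglycan-binding protein, and Retnlg, a resistin-like protein, were well above background in 12 of 12. Camp averaged -5.31 ± 0.11, -5.07 ± 0.19 and -5.11 ± 0.16 in old restricted, old fed and young fed rats, and Pglyrp1 -3.64 ± 0.02, -3.75 ± 0.07 and -3.85 ± 0.10 (SD, n = 4 each). Retnlg had -3.65, -3.22, -3.01 and -3.28 in old restricted rats, -1.74, -1.15, -3.53 and -3.87 in old fed rats and -3.89, -3.61, -3.79 and -3.99 in young fed rats. Old fed replicates 1 and 2 stood above all other animals for Retnlg, and none of these 3 genes passed in any comparison. Lcn2, a lipocalin of secondary granules that epithelia also make, had -7.00, -6.86, -6.97 and -7.19 in old restricted rats, -6.18, -4.95, -6.60 and -6.44 in old fed rats and -6.75, -6.77, -7.34 and -7.11 in young fed rats. It was well above background in 4 of 4 old restricted and 4 of 4 old fed rats, but in 1 of 4 young fed rats. Lcn2 differed by 0.95 with age (adjusted p = 0.0921), or 0.58 (adjusted p = 0.135) without old fed replicate 2. The summed signal of the 18 genes, on a linear scale relative to the 75th percentile, was 1.99 to 2.40 in old restricted, 2.16 to 4.07 in old fed and 1.87 to 2.11 in young fed rats, with old fed replicate 2 the highest. This sum follows its brightest probes, since Ncf1 averaged -0.32 and Ncf4 -1.19 in old fed rats, against -5.07 for Camp and -6.04 for Lcn2.

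Genes of neutrophil attractants fell in old restricted rats, with Ccl3 and Cxcl2 lower than in either fed group and Cxcl1 lower than in old fed rats. Of 13 genes listed, 11 were on the array and 8 were tested. Against old fed rats 3 of 8 were lower in old restricted rats and 0 higher (median -0.86), where 2.02% and 1.62% of all features were. Against young fed rats 2 of 8 were lower and 0 higher (median -0.56), where 5.99% and 3.19% of all features were. With age 0 of 8 passed (median 0.30). By limma's p before adjustment, 3 were higher and 0 lower at 0.05, where 8.32% and 16.3% of all features were. The counts were 3, 2 and 0 without old fed replicate 2 as well.

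Ccl3, a chemokine gene of activated macrophages and mast cells, had levels of -3.23, -2.77, -2.62 and -3.46 in old restricted rats, -1.53, -1.34, -1.89 and -1.83 in old fed rats and -2.48, -2.09, -2.40 and -2.16 in young fed rats. The 3 groups did not overlap, with old restricted animals lowest and old fed animals highest. It fell 2.59-fold in old restricted against old fed rats (log2 -1.37, -1.77 to -0.97, adjusted p = 0.00407), a call that held in each of the 12 fits without 1 animal. It fell 1.67-fold against young fed rats (log2 -0.74, adjusted p = 0.0315), and lost that call without young fed replicates 2 or 4 or old restricted replicates 1 or 4 (-0.59 to -0.70). With age its difference was 0.63 (adjusted p = 0.0714).

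Cxcl2, a ligand of Cxcr2, had -5.72, -5.54, -5.17 and -4.68 in old restricted rats, -1.14, -3.76, -3.08 and -3.40 in old fed rats and -3.19, -2.19, -2.73 and -2.43 in young fed rats. Old restricted animals lay below every fed animal, old fed replicate 1 lay highest, and the fed groups overlapped. It fell 5.4-fold against old fed rats (log2 -2.43, -3.48 to -1.39, adjusted p = 0.0203) and 6.26-fold against young fed rats (log2 -2.65, adjusted p = 0.00929). The first of these calls was lost without old restricted replicates 1 (-2.29, adjusted p = 0.0508) or 2 (-2.35, adjusted p = 0.0625). Cxcl1, another ligand of the same receptor, had -3.99, -3.67, -3.47 and -2.95 in old restricted rats, -2.02, -1.82, -2.65 and -2.38 in old fed rats and -2.66, -2.55, -3.18 and -3.04 in young fed rats. It fell 2.47-fold against old fed rats (log2 -1.30, -1.81 to -0.79, adjusted p = 0.0143) with no overlap between the groups. Cxcl1 lost that call without old fed replicates 2 and 4 together (-1.19, limma adjusted p = 0.078). Its differences from young fed rats (-0.66, adjusted p = 0.0969) and with age (0.64, adjusted p = 0.123) did not pass. The interleukin 1 beta gene Il1b differed by -1.16 between old restricted and old fed rats (adjusted p = 0.0987).

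**Figure D3:**
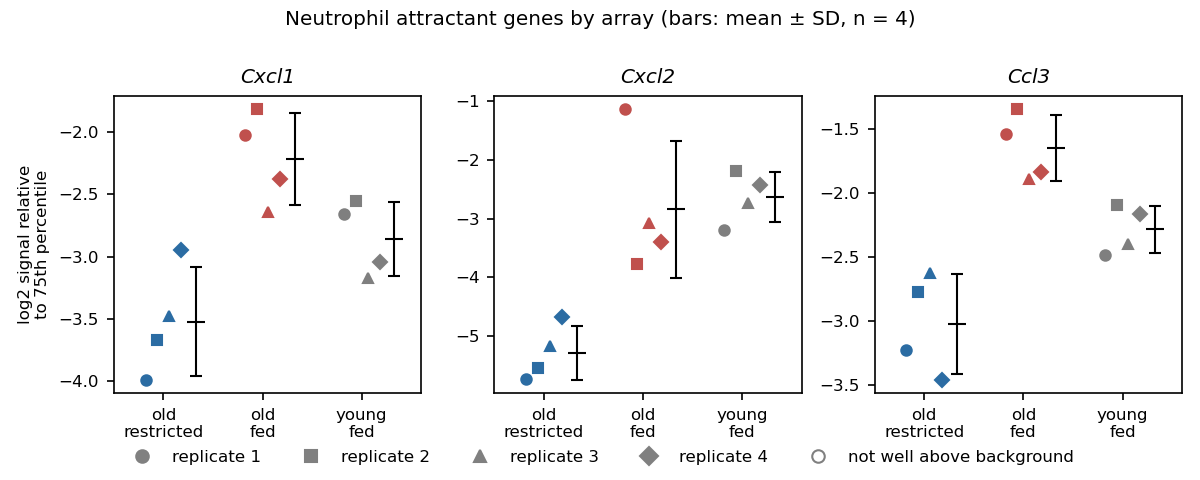
Levels of the attractant genes Cxcl1, Cxcl2 and Ccl3 in each animal (log2 signal relative to the array's 75th percentile), with the mean ± SD of 4 animals beside the points. All old restricted points of Cxcl2 and Ccl3 lie below all points of both fed groups, and old fed replicate 1 of Cxcl2 stands highest at -1.14.

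Rnase2, whose human counterpart encodes the eosinophil-derived neurotoxin, was the member with the widest difference. It was not well above background in any old restricted rat, with -9.58, -9.62, -9.68 and -8.95. It was well above background in all fed rats, with -4.45, -2.79, -6.15 and -6.80 in old fed and -4.56, -3.22, -5.06 and -5.38 in young fed rats. Old restricted replicates 1 to 3 lay about where the negative control spots of their arrays did and replicate 4 above them, and both fed groups overlapped each other. Means were -9.46 ± 0.34, -5.04 ± 1.80 and -4.55 ± 0.95 (SD, n = 4 each) in old restricted, old fed and young fed rats.

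Because the old restricted signal is only a bound, Rnase2 was at least 5.91-fold lower in old restricted than in old fed rats (fitted log2 difference -4.41, -6.04 to -2.79, adjusted p = 0.0109) and at least 8.31-fold lower than in young fed rats (-4.90, -6.53 to -3.28, adjusted p = 0.00417). These bounds set the brighter group's mean against, on each dimmer array, the higher of the probe's own signal and the lowest signal counted as well above background. They leave out the spread of the brighter group (SD 1.80 in old fed rats) and hold for this scaling only. Both calls held in the 12 fits without 1 animal, with -3.66 (adjusted p = 0.0126) against old fed rats without old fed replicate 2. With normexp correction, which raises dim signals by an offset, the differences were -1.50 (adjusted p = 0.103) and -1.76 (adjusted p = 0.0553) and did not pass. With normexp and quantile scaling the first was -1.59 (adjusted p = 0.0852), while the second passed. With age Rnase2 differed by -0.49 (-2.12 to 1.14, adjusted p = 0.713), or -1.24 (adjusted p = 0.273) without old fed replicate 2. Rodents carry several closely related ribonuclease genes, and signal of this probe from a relative cannot be told apart.

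**Figure D4:**
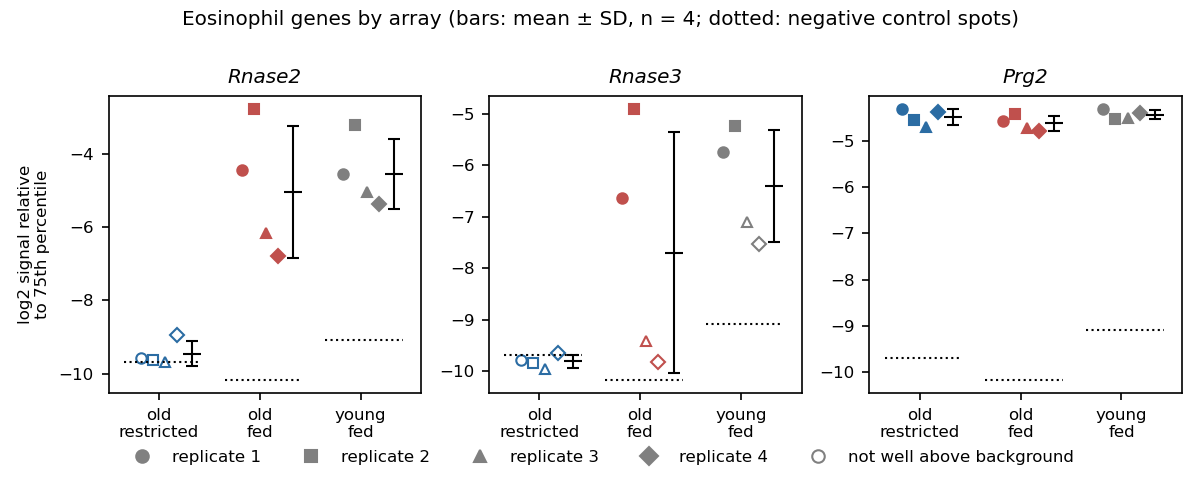
Levels of Rnase2, Rnase3 and Prg2 in each animal (log2 signal relative to the array's 75th percentile), with open symbols for probes not well above background, dotted lines for the mean of the negative control spots in each group, and mean ± SD of 4 animals. Old restricted points lie about the dotted line for Rnase3 and, apart from replicate 4 at -8.95, for Rnase2, while Prg2 lies between -4.79 and -4.32 in all 12 animals.

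Other eosinophil genes gave a mixed picture. The related ribonuclease gene Rnase3 was well above background in 0 of 4 old restricted rats (-9.96 to -9.64), in old fed replicates 1 and 2 (-6.64 and -4.91, against -9.41 and -9.83 in replicates 3 and 4), and in young fed replicates 1 and 2 (-5.74 and -5.23, against -7.09 and -7.53). It did not pass the filter and was not tested. Prg2, the major basic protein of eosinophil granules, averaged -4.49 ± 0.17 in old restricted, -4.63 ± 0.17 in old fed and -4.44 ± 0.10 in young fed rats (SD, n = 4 each), and the difference between old restricted and old fed rats was 0.13 (-0.10 to 0.37, adjusted p = 0.515). The eosinophil peroxidase gene Epx, Prg3 and the interleukin 5 receptor gene Il5ra were well above background in 0 of 12 animals. Ccr3, the receptor for eotaxin, was so in old fed replicates 1 and 2 only (-7.14 and -7.10).

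Of 15 eosinophil genes listed, 14 were on the array and 6 were tested, and 0 passed in any of the 3 comparisons. At p under 0.05 before adjustment by limma, 1 was lower in old restricted against old fed rats, where 9.15% of all features were. Against young fed rats 0 differed, where 16% of all features were lower and 10.1% higher. With age 2 were higher, where 8.32% of all features were. The medians of the 6 genes were -0.26 against old fed rats and 0.50 with age, or -0.17 and 0.07 without old fed replicate 2. The summed signal of the 6 was 14.8 to 17.96 in old restricted, 17.3 to 41.6 in old fed and 12.4 to 17.5 in young fed rats. Ccl5, a chemokine for eosinophils and T cells, had -0.10, 0.03, 0.48 and -0.31 in old restricted rats, 1.65, 4.54, 1.03 and 1.11 in old fed rats and -0.22, -0.04, 0.08 and 0.40 in young fed rats. Every old fed animal lay above every other animal, with replicate 2, the array with the highest sum, far above the rest. Its differences were -2.06 (adjusted p = 0.0906) against old fed rats and 2.03 (adjusted p = 0.0789) with age, and without old fed replicate 2 they were -1.24 (adjusted p = 0.0151) and 1.21 (adjusted p = 0.0244), both of which passed. The eotaxin gene Ccl11 had a difference of 0.72 with age (adjusted p = 0.113), and the lipoxygenase gene Alox15 one of -1.61 between old restricted and old fed rats (adjusted p = 0.312), or -0.46 without old fed replicate 2.

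Mast cell genes differed widely among the fed animals of each group. Cpa3, the carboxypeptidase of mast cell granules, had -4.08, -4.58, -4.06 and -4.29 in old restricted rats, -2.37, -2.66, -3.95 and -4.24 in old fed rats and -2.50, -2.89, -3.78 and -3.52 in young fed rats. Fcer1a, the IgE-binding chain of the high-affinity receptor, had -5.82, -5.91, -5.35 and -6.44, then -3.63, -3.20, -5.53 and -5.41, then -4.49, -5.03, -5.94 and -5.49 in the same order of groups by its brighter probe. Ms4a2, the beta chain of that receptor, had -6.76, -7.66, -6.52 and -7.03 in old restricted, -5.48, -5.43, -7.11 and -7.13 in old fed and -5.91, -6.25, -7.38 and -6.64 in young fed rats. In both fed groups replicates 1 and 2 were the highest for all 3 genes, and all 4 old restricted animals lay below them. Against fed replicates 3 and 4, old restricted animals lay among or below them for Cpa3. For Fcer1a and Ms4a2 they lay among them, with old restricted replicate 4 (Fcer1a) or 2 (Ms4a2) lowest and replicate 3 above them all. Replicate numbers are also array columns, so replicate and column cannot be told apart.

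None of these 3 genes passed. Cpa3 differed by -0.95 between old restricted and old fed rats (-1.83 to -0.07, adjusted p = 0.212) and by -1.08 against young fed rats (-1.96 to -0.20, adjusted p = 0.115), where the groups did not overlap. Fitted on those 2 groups alone, the difference from young fed rats passed (adjusted p = 0.0376). Fcer1a differed by -1.43 between old restricted and old fed rats (-2.56 to -0.31, adjusted p = 0.147) and by 0.79 with age (-0.33 to 1.92, adjusted p = 0.362), or -1.02 and 0.38 without old fed replicate 2. Its dimmer probe gave the same order of animals at the top, with -4.53 and -4.20 in old fed replicates 1 and 2 against -7.17 to -6.24 in old restricted rats. Ms4a2 differed by -0.70 between old restricted and old fed rats (-1.70 to 0.30, adjusted p = 0.411), or by -0.42 without old fed replicate 2. With age Cpa3 differed by -0.13 (-1.02 to 0.75) and Ms4a2 by 0.26 (-0.74 to 1.26), or by -0.35 and -0.03 without that replicate.

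Kit, the receptor for stem cell factor, spread little among animals. It had -5.37, -5.32, -5.15 and -5.53 in old restricted rats, -4.74, -4.85, -5.07 and -5.06 in old fed rats and -4.91, -5.02, -4.79 and -5.10 in young fed rats. Every old restricted animal lay below every fed animal, and the fed groups overlapped. Its difference was -0.41 against old fed rats (-0.66 to -0.17, adjusted p = 0.0673) and -0.39 against young fed rats (-0.63 to -0.14, adjusted p = 0.0516), so neither passed. With age it was 0.02 (-0.22 to 0.27, adjusted p = 0.906). Kit is also known from interstitial cells and melanocytes. Of 8 markers of those cells 5 were on the array and 2 were tested, with a summed signal of 2.96 to 3.17 in old restricted, 2.33 to 3.05 in old fed and 1.93 to 2.50 in young fed rats, and Tyr, Tyrp1 and Mlana were well above background in 0 of 12 animals. Their part in the result was not tested.

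**Figure D5:**
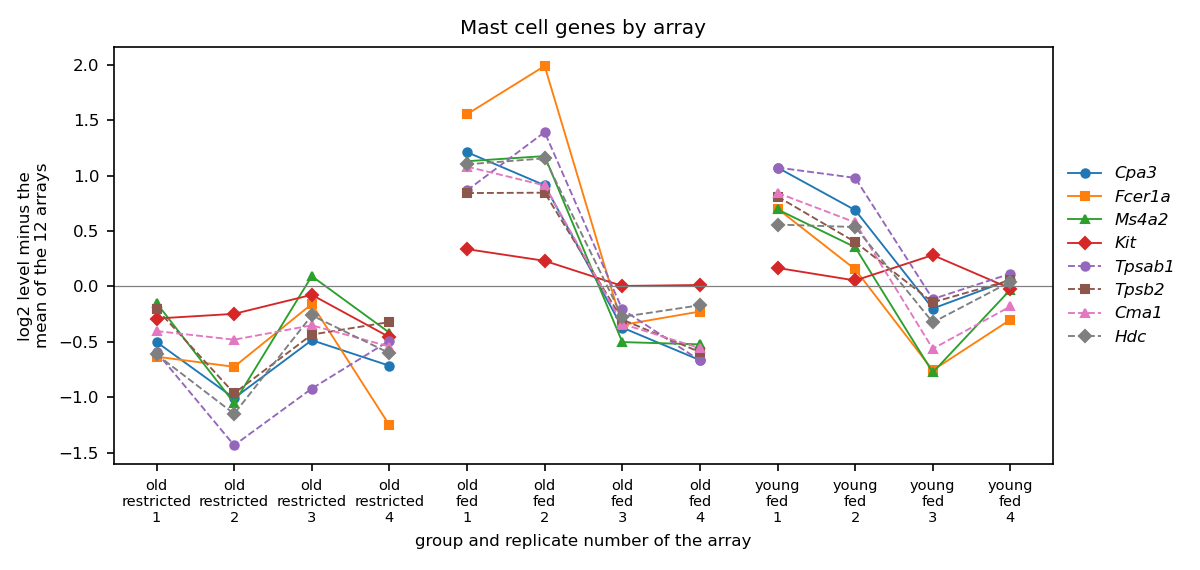
Levels of 8 mast cell genes in each of the 12 animals, each gene minus its own mean over the 12 (log2), with lines joining the animals of a group only to guide the eye. In the fed groups Cpa3, Fcer1a, Ms4a2, Tpsab1, Tpsb2, Cma1 and Hdc are high in replicates 1 and 2, while Kit stays closest to its mean.

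The wider mast cell list gave few calls. Of 38 genes listed, 34 were on the array and 25 were tested. In old restricted against old fed rats 0 passed (median -0.37). By limma's p before adjustment, 4 were higher and 10 lower at 0.05, where 11.5% and 9.15% of all features were. The smallest adjusted p were those of the inhibitory receptor gene Cd200r1 (-0.83, adjusted p = 0.0689) and the ectoenzyme gene Enpp3 (-0.42, adjusted p = 0.0917, or -0.27 without old fed replicate 2). Against young fed rats 1 was higher and 1 lower (median -0.19), where 3.19% and 5.99% of all features were. With age 2 rose and 1 fell (median 0.16), where 1.63% and 2.1% of all features did. Without old fed replicate 2 the counts were 0, then 1 higher and 2 lower (adding Tpsab1), then 2 higher and 1 lower with age (Fcer1g in place of Mrgprx3, median 0.04). The summed signal of the list was 23.5 to 27.0 in old restricted, 24.8 to 39.6 in old fed and 25.0 to 28.8 in young fed rats. This sum follows its brightest probes, since Fcer1g averaged 2.24 in old fed rats, against -1.44 for Cma1 and -2.01 for Tpsab1.

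Against young fed rats, Kitlg, which encodes stem cell factor, the ligand of Kit, rose 1.25-fold in old restricted rats (log2 0.32, 0.17 to 0.48, adjusted p = 0.0198). Its levels were 1.38, 1.5, 1.64 and 1.37 in old restricted rats, against 1.24, 1.12, 1.11 and 1.12 in young fed rats, without overlap. Slc18a2, the vesicle transporter that loads histamine and other amines, fell 1.26-fold (log2 -0.34, -0.50 to -0.17, adjusted p = 0.0208), with -1.48, -1.25, -1.56 and -1.35 in old restricted rats against -1.12, -1.03, -0.95 and -1.18 in young fed rats. Kitlg lost its call without old restricted replicates 2 or 3 (0.31 and 0.27), and Slc18a2 without young fed replicate 2 or old restricted replicates 1 or 3 (-0.32, -0.31 and -0.29).

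With age, Ltc4s, the synthase of leukotriene C4, fell 1.88-fold (log2 -0.91, adjusted p = 0.0288), with -4.68, -4.48, -4.92 and -4.88 in old fed rats against -3.57, -3.85, -4.35 and -3.53 in young fed rats. Srgn, the proteoglycan core of granules in mast cells and other blood cells, rose 1.46-fold (log2 0.55, adjusted p = 0.0321), and the Mas-related receptor gene Mrgprx3 rose 1.54-fold (log2 0.63, adjusted p = 0.0375). Old fed and young fed animals were fully separated for each of these 3 genes. Ltc4s lost its call without young fed replicates 1, 2 or 4 or old fed replicate 3 (-0.82 to -0.92). Srgn lost it without young fed replicates 1, 2 or 3 (0.53 to 0.54). Mrgprx3 lost it without young fed replicates 1, 2 or 3, old fed replicates 2, 3 or 4 or old restricted replicates 1 or 4 (0.52 to 0.69).

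The best known granule genes of connective tissue mast cells followed Cpa3 from animal to animal. The tryptase gene Tpsab1 had -2.95, -3.79, -3.28 and -2.85 in old restricted rats, -1.49, -0.97, -2.57 and -3.03 in old fed rats and -1.29, -1.38, -2.47 and -2.24 in young fed rats. The chymase gene Cma1 had -2.12, -2.20, -2.07 and -2.26 in old restricted, -0.64, -0.81, -2.06 and -2.27 in old fed and -0.87, -1.14, -2.28 and -1.90 in young fed rats. Hdc, which makes histamine from histidine, had -4.53, -5.07, -4.18 and -4.52 in old restricted, -2.82, -2.77, -4.20 and -4.09 in old fed and -3.36, -3.39, -4.25 and -3.88 in young fed rats. Replicates 1 and 2 of both fed groups were again the highest. The differences between old restricted and old fed rats did not pass, at -1.20 for Tpsab1 (adjusted p = 0.146), -0.72 for Cma1 (adjusted p = 0.313) and -1.11 for Hdc (adjusted p = 0.103). Against young fed rats Tpsab1 differed by -1.37 (adjusted p = 0.0684), and without old fed replicate 2 that difference passed (adjusted p = 0.0386). Tpsab1 and Tpsb2 are close relatives, as are the Mcpt genes, and their probes may share signal.

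Among all features with a symbol, the 4 whose level was most correlated with Cpa3 over the 12 animals were Tpsb2 (Pearson r = 0.98), Cma1 (0.96), Tpsab1 (0.95) and Hdc (0.94). After subtraction of group means these values were 0.97, 0.98, 0.92 and 0.95. The 5 most like S100a9 were S100a8 (0.96), Pax8 (0.92), Slc39a1 (0.90), Celf5 (0.90) and Eed (0.89). These are descriptions, picked as the highest of many, over arrays that share slides and scaling.

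Among the 36 pairs of members, S100a8 and S100a9 had the highest correlation over the 12 animals before group means were subtracted (Pearson r = 0.962, Spearman rho = 0.944, permutation p = 1e-05 for each, the smallest the 100000 permutations can give, adjusted p = 0.00036). Without the 2 animals farthest from the median of S100a8, r was 0.937, within the slide of the 8 fed animals it was 0.977, and after subtraction of group means 0.943, where Cpa3 with Ms4a2 (0.956) and Cxcr2 with Rnase2 (0.945) were higher. The slide of the 4 old restricted animals holds too few for a value of its own. Fcer1a and Ms4a2 had r = 0.901 and rho = 0.853 (permutation adjusted p = 0.0013 and 0.011), with 0.771 without the 2 farthest animals and 0.948 among fed animals. Cpa3 and Ms4a2 had r = 0.9 and rho = 0.797 (permutation adjusted p = 0.0013 and 0.016), with 0.846 and 0.933 in the same settings. The permutations shuffled all 12 animals without regard to group, so these p-values do not separate group differences from variation among animals.

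Markers of other cells moved with these genes in part. Macrophage and monocyte markers had a summed signal of 23.2 to 30.7 in old restricted, 30.9 to 55.4 in old fed and 23.6 to 27.8 in young fed rats (11 of 12 listed genes tested), and T cell markers 1.63 to 2.04, 2.40 to 2.65 and 1.24 to 1.70 in the same order (9 of 10). Of the T cell markers 2 of 9 were lower in old restricted than in old fed rats, where 2.02% of all features were. With age 5 of 9 were higher, where 1.63% of all features were. Of the macrophage markers 0 of 11 passed in either comparison. At p under 0.05 before adjustment by limma, 5 of these 11 were lower in old restricted rats, where 9.15% of all features were. With age 5 were higher and 1 lower at that threshold, where 8.32% and 16.3% of all features were. Without old fed replicate 2, T cell counts were 2 and 6, and the macrophage lysozyme gene Lyz2 passed in both comparisons. Red cell and platelet markers summed to 58.2 to 86.4 in old restricted, 78.8 to 240 in old fed and 81.4 to 166 in young fed rats (8 of 11). Old fed replicate 2 was the highest of its group for the macrophage, red cell, mast cell, eosinophil, and neutrophil granule and surface sums. It was the lowest for T cell markers (2.40, against 2.44 to 2.65) and for urothelial markers (287, against 324 to 329.7). For neutrophil attractants replicate 1 was the highest (1.84, against 1.48 in replicate 2). The detrusor smooth muscle sum of old fed replicate 2 was 366, in an old fed range of 313 to 454. The lowest array of that range, replicate 4, had the muscle gene Tagln not well above background (-1.97, against 5.82 to 6.24 in the other 3). In young fed rats this sum was 482 to 501, above every old fed and old restricted animal (378 to 445 in old restricted rats). The part of these cells, and of blood left in the tissue, in the differences of the granulocyte and mast cell genes was not tested.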

How the data were processed

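Total RNA of 12 bladders was labelled with Cy3 and hybridised to 1-colour Agilent arrays of design 028279, per the labels' protocols and file headers. The deposited values are spot intensities on a linear scale, background-subtracted by the authors with Agilent Feature Extraction 10.7, per the submitters' processing notes and the file headers, without scaling between arrays. The deposited table for the whole series equalled these processed signals in 100% of spots (tolerance 1e-06) and was not used further.

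Processed signals were log2 transformed and each array's 75th percentile, taken over its non-control spots, was subtracted. Probes well above background on 4 of 4 arrays of a group were kept, with the brightest probe for each gene. Names came from RefSeq accessions matched to a table of GRCr8 (59.3% of 30367 probes). Linear models over all 12 arrays (R 4.3, limma 3.58, eBayes with a brightness trend) were tested two-sided with Benjamini-Hochberg adjustment at 0.05 over 20426 features. Their steps were tested on simulated data. P-values measure the spread between animals, pooled over the 3 groups, and precision is limited by how few arrays there are. Groups and replicate numbers came from the labels. Replicate numbers did not pair the animals, since deviations of animals with the same number correlated at r = -0.19 to 0.10. No slide block could be fitted for old restricted rats.

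The members and gene lists were chosen with earlier results of these data known. By rule the text names the members, the genes of each granulocyte or mast cell list that passed (at most 4), or the 2 with the smallest p where none did, and the 5 features most like S100a9 and Cpa3. One of the features most like Cpa3 is not reported here. Other genes (Lcn2, Il1b, Prg2, Rnase3, Ccl24, Ncf1, Ncf4, Tpsab1, Cma1, Hdc, Camp, Pglyrp1, Retnlg, Fcgr3a, Fcer1g, Lyz2, Tagln and markers near background) were named after their values were seen. Alternatives were other scalings, normexp correction (offset 50, on median signals), other filters and probes, other fits and leaving out animals.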

Additional observations from a re-analysis of the deposited data

Results flagged for a closer look

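Among the 4 old restricted rats, Rnase2 stood at -8.95 in replicate 4, apart from -9.68 to -9.58 in the other 3, a gap that is large for the range of a group of this size by Dixon's test. The probe was well above background in 0 of these 4 animals, so all of these values are bounds. The test was run on 27 sets of a gene and a group, of which 1 was marked, and chance marks about 1 in 20.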

How the results depend on the processing

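Old restricted against old fed rats had 2 members past the threshold, 1 with normexp and the 75th percentile (Cxcr2), 3 with normexp and quantile scaling (Cxcr2, Csf3r and Kit, without Rnase2), 0 among probes above background on all 12 arrays (a filter that removes both), 1 with only those 2 groups fitted (Rnase2), and 1 to 2 without 1 animal. Against young fed rats the count was 1 (Rnase2), and 2 with no brightness trend (adding Kit) or with only those 2 groups (adding Cpa3). It was 1 as well, but Kit in place of Rnase2, with normexp and the 75th percentile (adjusted p = 0.0394) and among probes above background on all 12 arrays, which removes Rnase2 (adjusted p = 0.0488). With age it was 0, and 1 (Cxcr2) without old fed replicate 4. With the replicate number as a block, in which numbers do not mark pairs, members past the threshold were 3 (adding S100a9, adjusted p = 0.0429), 1 and 0, and in 3 of 12 pairs of animals with the same number the first correlated best with its own number. Over all features 744, 1874 and 760 passed in these comparisons, and between 239 and 1024, 737 and 3259, and 94 and 3568 over the alternatives. Some small differences changed sign. Without 1 animal, the difference with age ranged from -0.45 to 0.18 for Cpa3, from -0.038 to 0.079 for Kit, from -0.026 to 0.54 for Ms4a2 and from -1.24 to 0.093 for Rnase2, and that of Csf3r between old restricted and young fed rats from -0.18 to 0.022. With age Cpa3 also turned to 0.015 without old fed replicates 2 and 4 together, and Kit to -0.015 with normexp. None of these passed with the main settings, and apart from the filter the cause was not tested. Of list genes, Cxcl2 against old fed rats, Srgn and Mrgprx3 also lost their calls with only 2 groups fitted or with the block, Ltc4s with only 2 groups, Itgb2 with those, both normexp settings or no brightness trend, and Padi4 against old fed rats with all of these or no filter. List counts without old fed replicate 2 were added after the data were seen.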

Other observations

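These genes were picked after their values were seen and were not tested further. Il1rl1, the receptor for interleukin 33 on mast cells and eosinophils, was well above background in 0 of 4 old restricted rats (-7.89 to -7.00), in 3 of 4 old fed rats (-7.56 to -5.90) and in 3 of 4 young fed rats (-7.18 to -4.19). Mcpt1, a mast cell protease gene, stood at -0.27 in old fed replicate 2 and at -3.80 to -2.32 in the other old fed rats, against -4.32 to -3.18 in young fed rats. Alox15, a lipoxygenase of eosinophils and macrophages, stood at -1.07 in that same animal and at -5.94 to -5.43 in the others of its group, against -6.31 to -5.10 in young fed rats. Clec4d and Clec4e, lectin receptors of myeloid cells, were well above background in 0 of 12 animals.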
